A study of Mus musculus with 20 samples.

Results

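The 58 genes described here code for proteins that copy DNA and supply its building blocks. They were chosen by gene symbol from a fixed list of origin licensing factors, MCM helicase subunits, helicase activators, polymerases, clamp and clamp loader, single-strand binding protein, strand maturation enzymes, nucleotide enzymes, chromatin copying factors, fork protection factors and E2f1, and the rule uses no measured value. The list itself was chosen with earlier results of these data known. All 58 were among the 10696 genes listed for IL25R+ cells, and 57 were among the 10580 genes listed for ST2+ cells, where Exo1 was not listed. After low counts were removed, 54 of the 58 were tested among 8850 genes in IL25R+ cells and 55 among 7626 genes in ST2+ cells. Cdc6, Exo1, Tyms and Dut were too low to test in IL25R+ cells, with 55, 15, 42 and 47 counts over the 12 libraries, and Cdc6 and Dut were too low in ST2+ cells, with 65 and 83 counts over the 8 libraries.

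The cells were type 2 innate lymphoid cells (ILC2), lymphocytes without antigen receptors that answer the alarm cytokines IL-25 and IL-33, taken from thymi of young wild-type (WT) male mice. They were sorted by either the IL-25 receptor (IL25R+) or the IL-33 receptor ST2 (ST2+). Sorted cells grew for 12 h, received fresh medium, grew for 24 h and were then treated for 24 h. IL25R+ cells received recombinant IL-25 at 10 ng/mL, recombinant IL-33 at 10 ng/mL, both at those doses, or PBS vehicle (3 libraries each). ST2+ cells received IL-33 at 10 ng/mL or PBS vehicle (4 libraries each). The medium of every group held IL-7 at 10 ng/mL, so the vehicle cultures were not free of cytokine. The labels do not say how many mice gave the cells of a library or whether replicates came from separate mice, so p-values measure only the spread between these samples. RNA was read by bulk MARS-seq, which counts the 3′ ends of polyadenylated RNA, and levels are given as CPM, each gene's share of the scaled library size, each population scaled on its own.

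DNA replication begins when the origin recognition complex, Cdc6 and Cdt1 load the ring-shaped MCM helicase onto DNA in G1. Cdc45 and the GINS complex then switch the helicase on, and polymerase alpha with primase, polymerase delta and polymerase epsilon copy the strands behind it. Ribonucleotide reductase, thymidylate synthase and thymidine kinase make the deoxynucleotides that the polymerases use. Transcription of most of these genes is low in resting lymphocytes and is switched on by E2F factors once the retinoblastoma proteins are phosphorylated, so their RNA is widely read as a sign of entry into S phase.

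Total counts per library ran from 834913 to 1880906 in IL25R+ cells and from 537999 to 5453444 in ST2+ cells, and the 3 IL25R+ vehicle libraries (834913 to 1423004) were shallower than the 3 IL-25 libraries (1499062 to 1685290). ILC2 markers were listed for 13 of 14 genes in IL25R+ cells and 14 of 14 in ST2+ cells, at levels that differed on the separately scaled tables. Gata3 was at 97.4 to 245 CPM in IL25R+ and 315 to 766 CPM in ST2+ libraries. Klrg1 was at 0 to 13 against 41.9 to 122 CPM, and Il17rb, of the IL-25 receptor, at 10.8 to 34 against 12.2 to 125 CPM. Thy1 went the other way, at 2470 to 3100 against 121 to 1370 CPM, as did Il2ra, at 124 to 200 against 30 to 107 CPM. T cell markers were also present in every IL25R+ library: 10 of 13 were listed, with Cd3e at 92.8 to 135 CPM and Dntt, the terminal transferase of developing T cells, at 320 to 784 CPM, against 1.11 to 29.3 and 1.81 to 61.4 CPM in ST2+ libraries. Trbc1, Trbc2 and Ptcra were not listed. In IL25R+ libraries Cd3g was at 164 to 422 CPM, Cd8b1 at 99.8 to 183 CPM and Themis at 94.9 to 252 CPM, while Cd4 was at most 7.85 CPM. The ILC2 name of these libraries rests on the sort. The summed T cell marker level was 1192 to 1433 CPM with IL-25, 1542 to 1871 CPM with IL-33, 1009 to 1098 CPM with both and 1637 to 1659 CPM with vehicle, and of the 8 tested markers 1 was lower with IL-25 against vehicle (Dntt, log2 -0.87, edgeR adjusted p 6.36e-05), 4 with both (Dntt, Cd3d, Cd3g and Themis), and none was higher in either. Summed macrophage and dendritic cell markers (7 of 12 listed) lay at 16.9 to 27.6 CPM with IL-25, 13.7 to 93.3 CPM with IL-33, 106 to 167 CPM with both and 72.6 to 198 CPM with vehicle, with 3 of 4 tested lower with IL-25 and 0 called with both. Other markers rose where the replication genes did. Pecam1, an adhesion molecule of endothelium and leukocytes and the 1 of 5 fibroblast and endothelial markers listed, was at 151 to 165 CPM with IL-25, 83.3 to 127 CPM with IL-33, 182 to 201 CPM with both and 77.8 to 85.5 CPM with vehicle. Summed B cell markers (2 of 5 listed) were 203 to 283 CPM with IL-25, 115.5 to 147 CPM with IL-33, 175 to 216 CPM with both and 135 to 194.5 CPM with vehicle, and Cd79b, the 1 tested, was called higher with IL-25. Of 11 tested ILC2 markers, 6 were higher and 0 lower with IL-25, and 6 were higher and 1 lower with both. Gzma, the 1 of 5 NK cell and ILC1 markers listed, was lower with IL-25 and with both. Of the thymic epithelial markers 2 of 5 were listed. Aire, 1 of them, stood at 10800, 28.2 and 0 CPM in IL-33 libraries 1, 2 and 3 and at 24.3 to 36.3 CPM with IL-25. It was at 0 to 1.27 CPM with both and at 0 to 1.9 CPM with vehicle. The part of these markers in the results was not tested. Libraries of IL25R+ cells also fell on 2 sides by the RNA of Glycam1, a mucin-like glycoprotein. The 3 libraries with both cytokines, the 3 vehicle libraries and library 3 with IL-33 held at least 116 CPM of it, while the 3 IL-25 libraries and libraries 1 and 2 with IL-33 held at most 0.731 CPM, so IL-25 against vehicle lies wholly across this split. Aire was at 24.3 CPM or more on the side low in Glycam1 and at most 1.9 CPM on the other. The 3 macrophage and dendritic cell markers called lower with IL-25 (H2-Aa, H2-Ab1 and Cd74) ran the other way. They were at most 7.08 CPM on the side low in Glycam1 and at least 14.4 CPM on the other. For IL-25 against vehicle, these marker differences cannot be told apart from the split. In ST2+ cells, library 2 with IL-33 stood apart from all others on the second principal component of the expressed genes. Counts of comparisons between 2 IL25R+ groups are given with and without the split as a term, and those with ST2+ libraries with and without that library. Each role's calls with IL-25 that were lost to the split term are named. Because only the IL-33 group lies on both sides, the term rests on its 3 libraries and cannot separate IL-25 from the split.

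Many S phase genes share short promoter letters, and 4 promoters are shown because they belong to members that rose with IL-25 and hold them. Promoters from 250 bases before to 50 bases after the start (RefSeq, GRCm38.p6) were matched for 46 of the 58 genes. The letters TTTCCCGC and TTTGGCGC, forms of the E2F motif, were searched on both strands. TTTCCCGC was held by 8 of the 46 genes (17.4%), TTTGGCGC by 7 (15.2%) and either by 14 (30.4%), against 2.36%, 1.11% and 3.42% of the 8533 other genes of the IL25R+ table with a promoter. In all 27025 genes of the promoter table these shares were 1.24%, 0.585% and 1.8%. The CCAAT box, the letters bound by NF-Y, was held by 27 of the 46 genes (58.7%), against 42.8% of the other genes and 41.1% of all genes. Either E2F form was in 10 of the 33 members with a promoter that rose with IL-25 and in 3 of the 10 that were tested and not called. These matches describe letters and not sites of binding.
The 4 promoters below are written 5′ to 3′ on the gene's own strand, and capitals mark the E2F forms and CCAAT on either strand (GCGCCAAA, GCGGGAAA and ATTGG are the same letters read on the other strand).
Mcm5: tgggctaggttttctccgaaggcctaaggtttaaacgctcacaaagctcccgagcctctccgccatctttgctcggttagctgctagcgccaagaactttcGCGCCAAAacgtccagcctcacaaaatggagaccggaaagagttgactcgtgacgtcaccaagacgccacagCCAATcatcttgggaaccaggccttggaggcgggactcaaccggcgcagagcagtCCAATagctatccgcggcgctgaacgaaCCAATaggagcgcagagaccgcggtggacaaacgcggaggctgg
Hells: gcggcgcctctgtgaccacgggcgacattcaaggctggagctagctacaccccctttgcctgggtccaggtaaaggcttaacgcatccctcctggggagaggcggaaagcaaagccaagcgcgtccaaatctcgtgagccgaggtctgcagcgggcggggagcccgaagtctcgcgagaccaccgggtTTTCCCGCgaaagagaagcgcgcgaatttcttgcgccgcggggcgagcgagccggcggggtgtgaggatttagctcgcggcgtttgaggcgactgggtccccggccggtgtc
Mcm3: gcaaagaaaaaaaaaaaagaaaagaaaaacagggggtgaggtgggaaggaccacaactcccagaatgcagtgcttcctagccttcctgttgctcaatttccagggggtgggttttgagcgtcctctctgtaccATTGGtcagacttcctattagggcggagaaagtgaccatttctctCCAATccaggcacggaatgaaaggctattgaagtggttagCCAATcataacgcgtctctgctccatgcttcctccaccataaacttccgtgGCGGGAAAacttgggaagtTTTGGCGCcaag
Pola1: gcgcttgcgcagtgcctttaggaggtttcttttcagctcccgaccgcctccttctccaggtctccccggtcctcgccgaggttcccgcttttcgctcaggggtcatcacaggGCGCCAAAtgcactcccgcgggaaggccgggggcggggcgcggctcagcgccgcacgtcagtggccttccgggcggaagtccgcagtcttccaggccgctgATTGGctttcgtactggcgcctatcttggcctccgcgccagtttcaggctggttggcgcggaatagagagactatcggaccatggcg
The Mcm5 promoter (chr8:75109259-75109558, plus strand) held TTTGGCGC at -149 from the start and CCAAT at -77, -22 and 7. The Hells promoter (chr19:38930740-38931039, plus strand) held TTTCCCGC at -62 and no CCAAT. The Mcm3 promoter (chr1:20820263-20820562, minus strand) held both E2F forms, at 20 and 39, and CCAAT at -117, -72 and -32. The Pola1 promoter (chrX:93632106-93632405, minus strand) held TTTGGCGC at -138 and CCAAT at -37. None of these matches overlapped another within the 4 promoters.

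In IL25R+ cells the replication genes rose with IL-25, alone or with IL-33, and were not called with IL-33 alone. Their summed level was 3465, 3185 and 3311 CPM with IL-25, 2123, 1877 and 2183 CPM with IL-33, 3532, 3255 and 3568 CPM with both, and 1775, 1853 and 1773 CPM with vehicle. The IL-25 libraries and the libraries with both cytokines did not overlap with the vehicle libraries, and the lowest of them lay above the highest IL-33 library. The IL-33 libraries lay just above the vehicle libraries, at means of 2061 ± 162 and 1801 ± 45.6 CPM (SD, n = 3 each). In bulk RNA, more cells that transcribe these genes and more RNA per cell cannot be told apart.

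**Figure D1:**
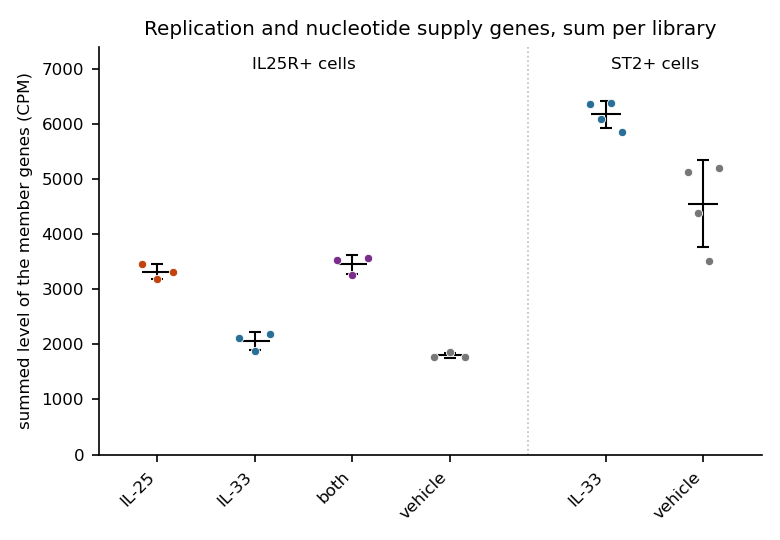
Summed level of the listed replication genes (CPM, linear axis from 0) in each library, with points for libraries and bars for mean ± SD; n = 3 per IL25R+ group and n = 4 per ST2+ group. IL-25 libraries (3185 to 3465 CPM) and libraries with both cytokines (3255 to 3568 CPM) lie above all vehicle libraries (1773 to 1853 CPM), and ST2+ IL-33 libraries (5864 to 6376 CPM) lie above ST2+ vehicle libraries (3505 to 5204 CPM).

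With IL-25 against vehicle, 42 of the 54 tested members were higher and 0 were lower (edgeR, adjusted p under 0.05), where 9.07% of all 8850 genes were called higher and 5.9% lower. Their median log2 fold change was 1.14, against -0.03 over all genes, and 30 of the 42 changed at least 2-fold. Of the 54 estimates 52 were positive, where 47.8% were positive over all genes. Below, a change is given as the log2 fold change with its SE. In 45 of the 54 the IL-25 libraries all lay above the vehicle libraries, as they did in 18.6% of all genes. No member was lower at an unadjusted p under 0.05 either, and DESeq2 and limma-voom called 0 lower. With the side of the Glycam1 split as a term in the fit, an alternative added after the data were seen, 22 of the 42 were still called, 18 were not and the estimates of Mcm10 and Rnaseh2b turned negative. Only the IL-33 group has libraries on both sides, so the term was estimated from its library 3 against libraries 1 and 2. Calls kept or lost with the term carry the spread of those 3 libraries. They cannot separate IL-25 from the split.

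With both cytokines against vehicle, 39 of the 54 were higher and 0 lower by edgeR, against 8.97% and 6.67% of all genes, with a median log2 fold change of 1.13. These groups lie on the same side of the Glycam1 split, so a term for its side leaves their estimates almost unchanged and does not test them. With that term all 39 were still called among 40 in all. Both comparisons share the vehicle libraries. Against IL-33 alone, both cytokines gave 34 higher members (9.29% of all genes) and IL-25 gave 37 (8.34% of all genes); with the split's side as a term these counts were 22 and 32.

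With IL-33 alone against vehicle, edgeR called 0 members higher and 0 lower, where 0.181% of all genes were called higher and 0.0565% lower, and DESeq2 and limma-voom called 0 as well. At an unadjusted p under 0.05, 10 members were higher and 0 lower, beside 1069 of all 8850 genes in either direction. Of the 54 estimates 42 were positive with a median of 0.24, where 50.8% were positive over all genes. The count of 0 called members rested on single libraries, though it was also 0 without IL-33 library 1, which held the high Aire level. Without IL-33 library 2, the lowest of its group, 4 members passed edgeR's test: Mcm5 (log2 fold change 0.87), Mcm7 (0.59), Rrm2 (1.67) and Dck (0.78). Without IL-33 library 3, the only one of its group on the vehicle side of the Glycam1 split, Orc6 passed (1.08), and with that side as a term Mcm5 (1.11), Rrm1 (1.02) and Dck (0.95) passed.

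**Figure D2:**
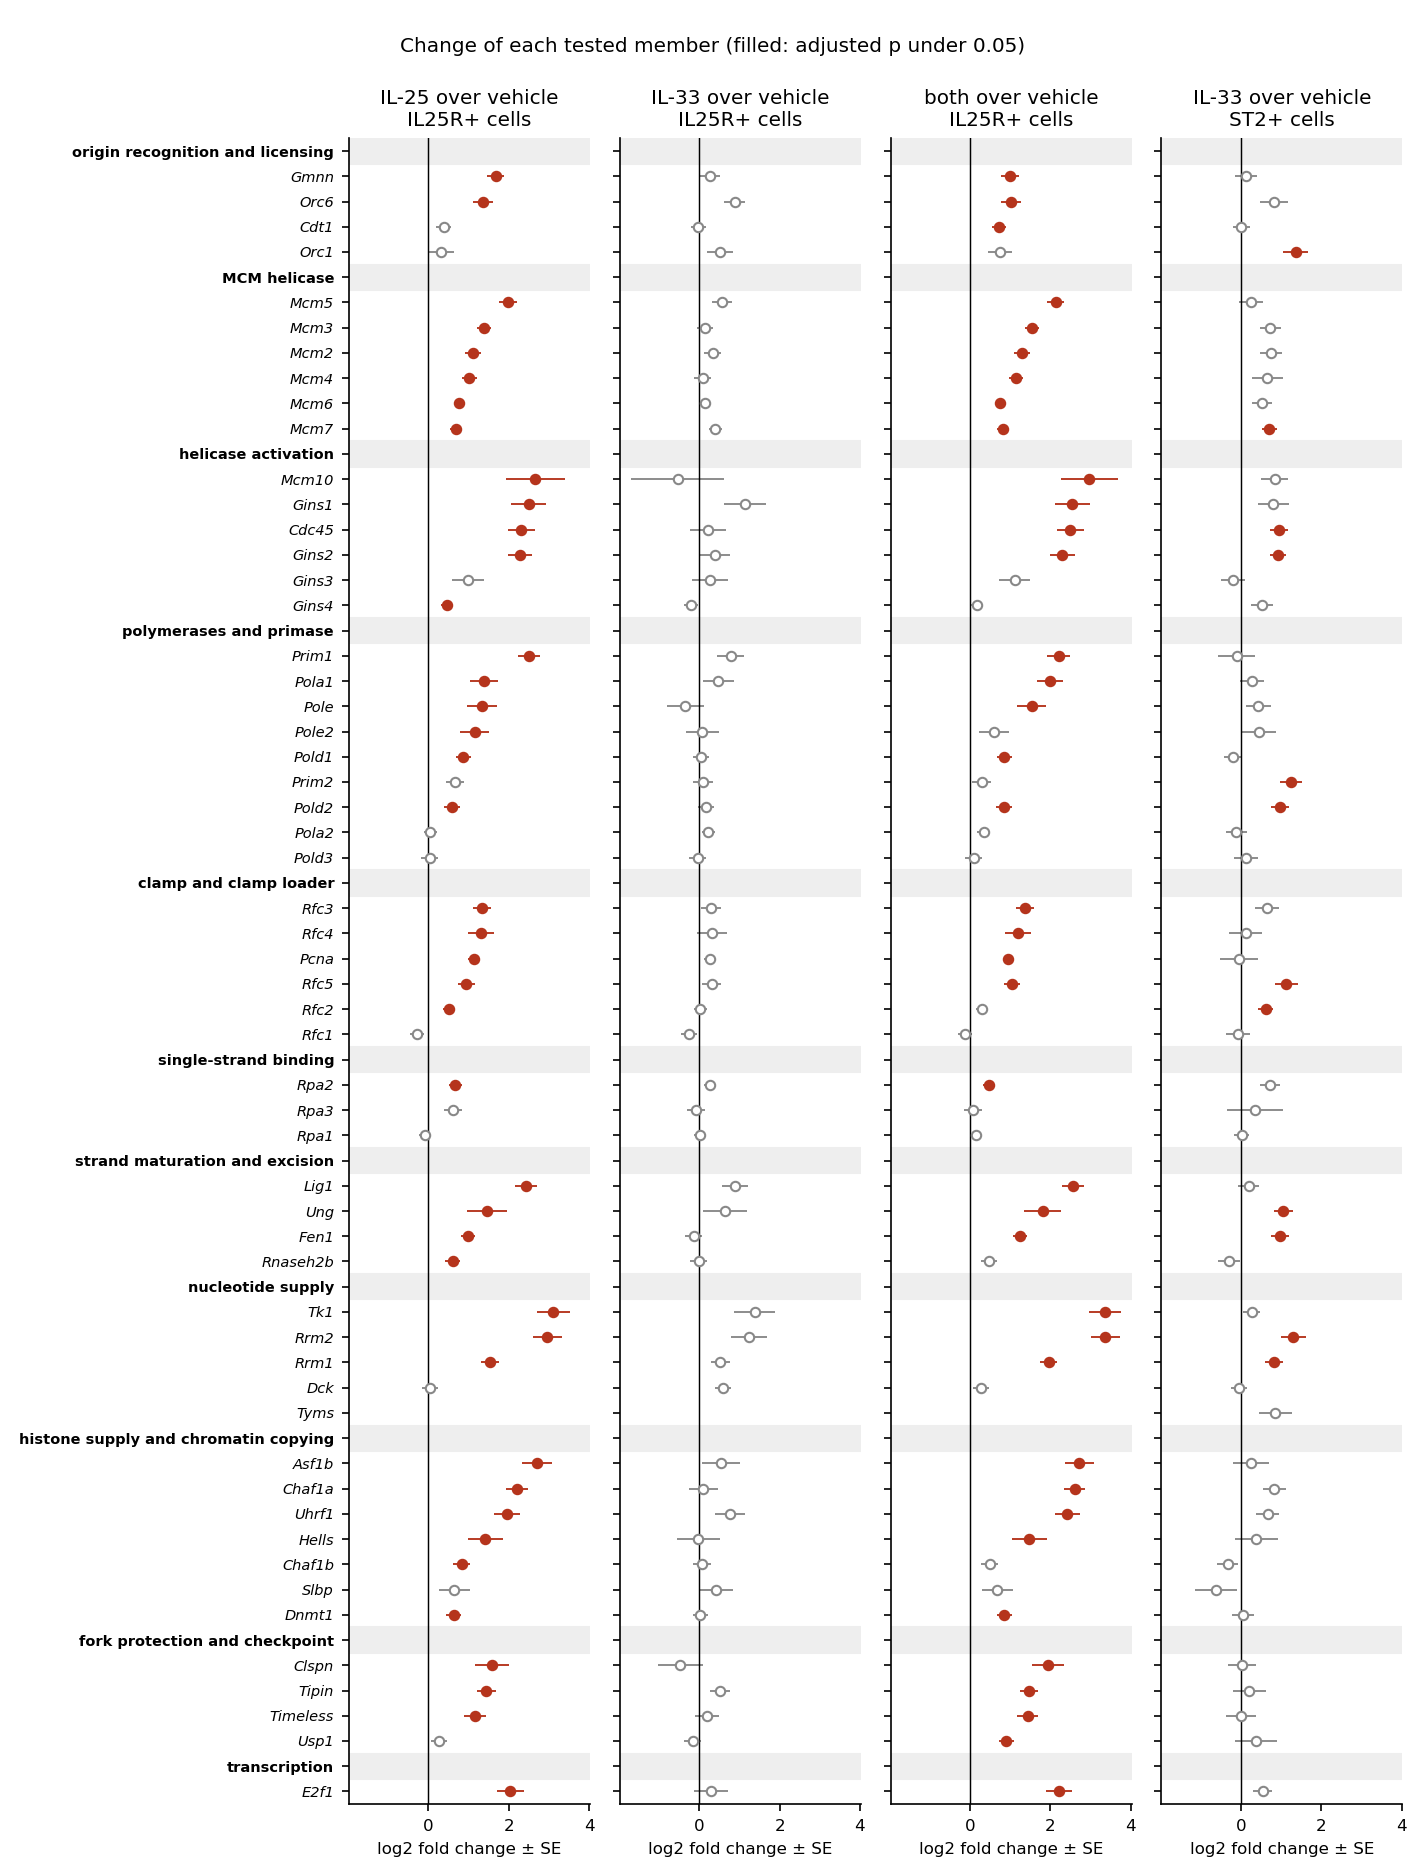
Log2 fold change ± SE of each tested member, grouped by role, with IL-25, IL-33 and both cytokines against vehicle in IL25R+ cells and IL-33 against vehicle in ST2+ cells in 4 panels; filled points passed edgeR's test at adjusted p under 0.05. Filled points number 42, 0, 39 and 12 of 54, 54, 54 and 55 tested members, and all lie right of 0.

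Among the licensing factors, 2 of the 4 tested members rose with IL-25 and 3 with both cytokines. Orc6, a subunit of the origin recognition complex, had 42.8, 36.8 and 38.96 CPM with IL-25, 29.95, 34.7 and 18.5 CPM with IL-33, 32.7, 28.5 and 31.9 CPM with both and 17.7, 12.9 and 14.2 CPM with vehicle. Every library with a cytokine lay above the vehicle libraries, and the changes were log2 1.37 ± 0.24 SE, edgeR adjusted p 0.000493 with IL-25 and log2 1.01 ± 0.25 SE, edgeR adjusted p 0.00776 with both. Gmnn codes for geminin, which blocks Cdt1 once replication has begun so that origins are not licensed again. It had 90.1, 72.3 and 78.6 CPM with IL-25, 37.99, 29.7 and 22.2 CPM with IL-33, 38.5, 57.5 and 53.5 CPM with both and 22.2, 21.1 and 32.3 CPM with vehicle. The IL-25 libraries were the highest, and the change was log2 1.68 ± 0.21 SE, edgeR adjusted p 1.23e-05 with IL-25. Cdt1, which brings the MCM ring to the origin, had 64.8, 73.7 and 48 CPM with IL-25, 46.8, 39.8 and 55.4 CPM with IL-33, 83.5, 68.9 and 83.4 CPM with both and 47.7, 53.9 and 42.7 CPM with vehicle. The libraries with both cytokines all lay above the vehicle libraries and the IL-25 libraries did not, and Cdt1 rose with both (log2 0.71 ± 0.18 SE, edgeR adjusted p 0.008) and was not called with IL-25 alone (log2 0.38 ± 0.18 SE, edgeR adjusted p 0.171). Orc1, the largest subunit of the origin recognition complex, was called with neither, at group means of 14.5 CPM with IL-25, 17.1 CPM with IL-33, 19.7 CPM with both and 12.2 CPM with vehicle. Cdc6, which loads the MCM ring, was not tested, with 19 counts in all with IL-25, 4 with IL-33, 29 with both and 3 with vehicle. With the side of the Glycam1 split as a term, neither Orc6 (log2 0.56, edgeR adjusted p 0.48) nor Gmnn (1.07, 0.139) was called with IL-25.

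All 6 subunits of the MCM helicase, the motor that opens the double helix, rose with IL-25 and with both cytokines, though Mcm4 and Mcm7 lost the call with IL-25 when the Glycam1 split was a term. The log2 fold changes were 0.69 to 1.99 with IL-25 and 0.73 to 2.13 with both. Mcm5 (its promoter is shown above) had 136, 115 and 137 CPM with IL-25, 49.7, 27.5 and 70.2 CPM with IL-33, 158, 139 and 134 CPM with both and 33.4, 36.3 and 28.5 CPM with vehicle. Its IL-33 libraries were uneven, the second lying below the vehicle libraries and the other two above. Its change with both cytokines was log2 2.13 ± 0.21 SE, edgeR adjusted p 3.69e-07. Mcm6 had 213, 242 and 221 CPM with IL-25, 164, 127 and 149.6 CPM with IL-33, 214, 206 and 240.1 CPM with both and 137, 135 and 125 CPM with vehicle. The IL-33 libraries overlapped with the vehicle libraries and the other cytokine libraries did not, with a change with IL-25 of log2 0.77 ± 0.13 SE, edgeR adjusted p 0.000236. Mcm7 had 159, 141 and 164 CPM with IL-25, 160, 91.9 and 128 CPM with IL-33, 177, 163 and 168 CPM with both and 103, 94.9 and 89.2 CPM with vehicle. Its first IL-33 library was as high as the IL-25 libraries, and its change with IL-25 was log2 0.69 ± 0.16 SE, edgeR adjusted p 0.00462. Mcm2, Mcm3 and Mcm4 rose with IL-25 by 1.11, 1.39 and 1.02 on the log2 scale. With the split term Mcm4 was at log2 0.45 (edgeR adjusted p 0.486) and Mcm7 at 0.71 (0.118), and the other 4 kept their calls.

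Of the 6 genes that switch the helicase on, 5 rose with IL-25 and 4 with both cytokines, with a median log2 fold change of 2.3 with IL-25. Cdc45, which joins MCM and GINS in the active helicase, had 30.5, 26.2 and 31.3 CPM with IL-25, 11.7, 4.34 and 3.695 CPM with IL-33, 34.9, 27.4 and 37.6 CPM with both and 6.54, 7.03 and 3.795 CPM with vehicle. The lowest IL-25 library was above the highest vehicle and IL-33 libraries, a change of log2 2.32 ± 0.34 SE, edgeR adjusted p 6.79e-05 against vehicle. Gins2, a GINS subunit, had 45.4, 33.3 and 42.4 CPM with IL-25, 12.4, 5.79 and 14.8 CPM with IL-33, 39.95, 38.3 and 43.95 CPM with both and 6.54, 14.1 and 5.69 CPM with vehicle. Its changes were log2 2.28 ± 0.31 SE, edgeR adjusted p 2.68e-05 with IL-25 and log2 2.29 ± 0.31 SE, edgeR adjusted p 2.18e-05 with both. Gins4, another GINS subunit, had 73.2, 75.8 and 64.7 CPM with IL-25, 50.4, 45.6 and 36.95 CPM with IL-33, 61.7, 55.3 and 56.7 CPM with both and 45.8, 52.7 and 57.9 CPM with vehicle. It rose with IL-25 by log2 0.46 ± 0.16 SE, edgeR adjusted p 0.0495, a call lost in 13 of 20 alternatives, and was not called with both. Gins1 rose with IL-25 by 2.5 on the log2 scale, and Gins3 was not called (log2 0.99 ± 0.4 SE, edgeR adjusted p 0.101). Mcm10, a scaffold of helicase activation, had 7.65 to 8.42 CPM with IL-25, up to 1.45 CPM with IL-33, 5.096 to 16.4 CPM with both and up to 2.34 CPM with vehicle, where the 3 vehicle libraries held 4 counts in all. With the split term Gins1 and Gins2 kept their calls with IL-25, while Cdc45 (log2 1.22, edgeR adjusted p 0.478), Gins4 (0.09, 0.899) and Mcm10 (-1.03, 0.822) did not.

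**Figure D3:**
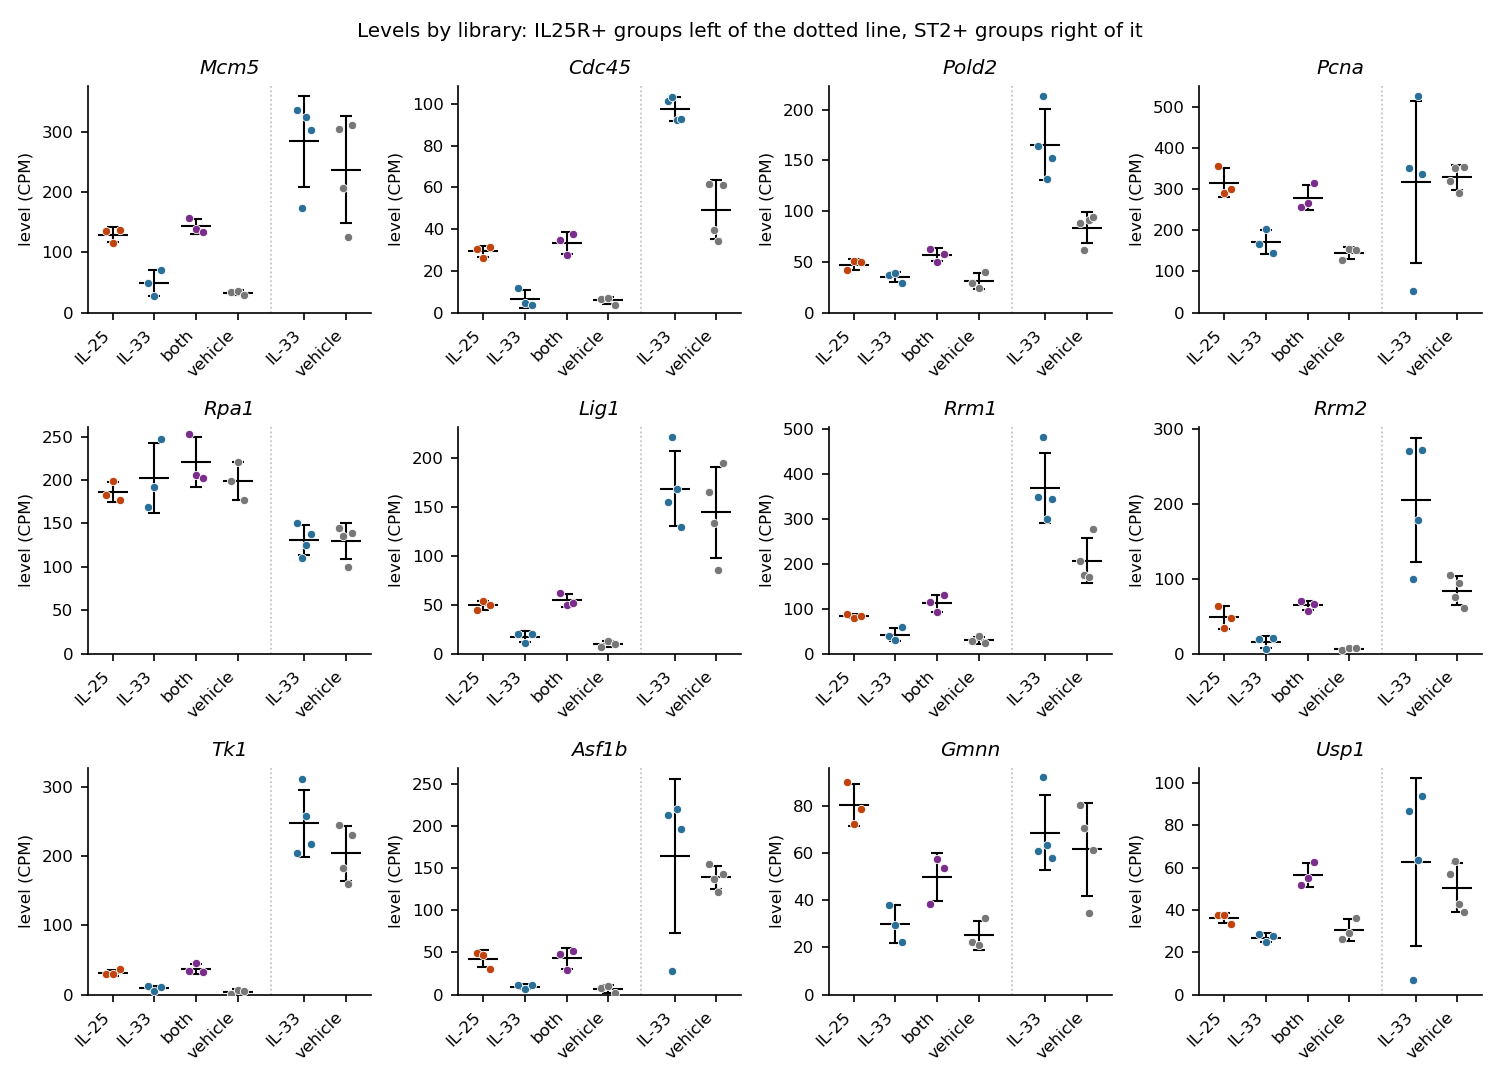
Level of 12 members (CPM, linear axes from 0) in every library, IL25R+ groups left of the dotted line and ST2+ groups right of it; points are libraries, bars are mean ± SD (n = 3 or 4). Mcm5, Cdc45, Lig1, Rrm2, Tk1 and Asf1b are high with IL-25 and with both cytokines and low with IL-33 and vehicle in IL25R+ cells, Rpa1 is level across those groups, and ST2+ IL-33 library 2 lies apart for Pcna, Asf1b and Usp1.

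Of the 9 polymerase and primase genes, 6 rose with IL-25 and 5 with both cytokines. With the split term, Prim1 and Pold1 kept their calls with IL-25 and Pola1, Pole, Pole2 and Pold2 did not (edgeR adjusted p 0.13 to 0.776). Pold1, the catalytic subunit of polymerase delta, had 71.3, 68.7 and 83.5 CPM with IL-25, 37.3, 39.8 and 49.9 CPM with IL-33, 87.9, 63.5 and 70.1 CPM with both and 49.04, 39.8 and 31.3 CPM with vehicle. The IL-25 libraries all lay above the vehicle libraries, a change of log2 0.87 ± 0.19 SE, edgeR adjusted p 0.0026. Pold2, the second subunit of polymerase delta, had 41.5, 51.01 and 49.4 CPM with IL-25, 36.5, 39.1 and 29.6 CPM with IL-33, 62.5, 49.8 and 57.96 CPM with both and 29.4, 24.6 and 39.9 CPM with vehicle. It rose by log2 0.59 ± 0.2 SE, edgeR adjusted p 0.0497 with IL-25, a call lost in 11 of 20 alternatives, and by log2 0.84 ± 0.19 SE, edgeR adjusted p 0.00457 with both. Pola2, the second subunit of polymerase alpha, had 51.8, 55.97 and 52.9 CPM with IL-25, 51.1, 56.4 and 75.7 CPM with IL-33, 65.4, 66.2 and 64.97 CPM with both and 51.7, 57.4 and 47.4 CPM with vehicle. It was not called with IL-25 (log2 0.04 ± 0.17 SE, edgeR adjusted p 0.895), while Pola1, the catalytic subunit of the same polymerase, rose by 1.38 on the log2 scale. The primase pair, which lays down the RNA primer, was split by the test. Prim1, its catalytic subunit, had 57.7 to 72.3 CPM with IL-25 and 7.19 to 15.2 CPM with vehicle and rose by log2 2.5 ± 0.27 SE, edgeR adjusted p 1.77e-06. Prim2 was not called (log2 0.67 ± 0.23 SE, edgeR adjusted p 0.0566). Pole and Pole2 of polymerase epsilon rose with IL-25 by 1.34 and 1.15 on the log2 scale, and Pold3 was not called (log2 0.04 ± 0.21 SE, edgeR adjusted p 0.936).

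Of the sliding clamp and its loader, 5 of 6 genes rose with IL-25 and 4 with both. Pcna, the clamp that holds polymerases on DNA, had 358, 291 and 301 CPM with IL-25, 168, 204 and 145 CPM with IL-33, 257, 267 and 315 CPM with both and 129, 155 and 153 CPM with vehicle. Its IL-25 libraries and the libraries with both cytokines lay above every IL-33 and vehicle library, and it changed by log2 1.13 ± 0.14 SE, edgeR adjusted p 1.06e-05 with IL-25. Rfc5, a clamp loader subunit, had 41.5, 39.7 and 39.7 CPM with IL-25, 29.95, 23.2 and 24.02 CPM with IL-33, 49.4, 35.6 and 45.2 CPM with both and 22.2, 19.9 and 19.9 CPM with vehicle. No vehicle library reached any cytokine library, and the change with IL-25 was log2 0.95 ± 0.21 SE, edgeR adjusted p 0.00375. Rfc2 had 107, 123 and 134 CPM with IL-25, 87.7, 83.2 and 88.7 CPM with IL-33, 116, 89.7 and 108 CPM with both and 102, 70.3 and 77.8 CPM with vehicle. Its change with IL-25 was log2 0.51 ± 0.15 SE, edgeR adjusted p 0.0239, and it was not called with both (log2 0.3 ± 0.15 SE, edgeR adjusted p 0.2). Rfc3 and Rfc4 rose with IL-25 by 1.35 and 1.32 on the log2 scale. Rfc1, the large subunit, had a negative estimate that was not called (log2 -0.28 ± 0.19 SE, edgeR adjusted p 0.326), with group means of 49.6 CPM with IL-25, 50.5 CPM with IL-33, 55.6 CPM with both and 60.4 CPM with vehicle. With the split term Pcna and Rfc3 kept their calls with IL-25, and Rfc2, Rfc4 and Rfc5 did not, with edgeR adjusted p of 0.223, 0.547 and 0.252.

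Replication protein A, the 3-subunit complex that coats single-stranded DNA, was the role with the smallest share of calls: Rpa2 alone rose with IL-25 and with both cytokines. Rpa2 had 86.2, 86.4 and 102 CPM with IL-25, 56.98, 72.3 and 78.5 CPM with IL-33, 73.4, 82.1 and 82.2 CPM with both and 52.3, 63.3 and 57.9 CPM with vehicle. Its change with IL-25 was log2 0.67 ± 0.15 SE, edgeR adjusted p 0.00425. Rpa1, the large subunit that holds most of the DNA-binding domains, had 183, 199 and 177 CPM with IL-25, 169, 192 and 248 CPM with IL-33, 254, 206 and 202 CPM with both and 199, 221 and 177 CPM with vehicle. Each cytokine group overlapped with the vehicle group, and no change was called (log2 -0.09 ± 0.14 SE, edgeR adjusted p 0.706 with IL-25). Rpa3 had 56.4, 43.2 and 57.1 CPM with IL-25, 40.2, 28.9 and 26.8 CPM with IL-33, 23.97, 42.7 and 39.5 CPM with both and 32.7, 32.8 and 37 CPM with vehicle, and its change with IL-25 was just outside the threshold (log2 0.61 ± 0.22 SE, edgeR adjusted p 0.0607).

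The enzymes that finish and repair new strands all rose with IL-25, 4 of 4 tested, and 3 of 4 rose with both. Lig1, the ligase that seals Okazaki fragments, had 44.7, 53.8 and 50.1 CPM with IL-25, 20.5, 10.9 and 20.3 CPM with IL-33, 62.5, 49.8 and 51.6 CPM with both and 6.54, 12.9 and 9.49 CPM with vehicle. Every IL-25 library lay above every IL-33 and vehicle library, and the change was log2 2.43 ± 0.27 SE, edgeR adjusted p 2.51e-06 with IL-25 and log2 2.56 ± 0.27 SE, edgeR adjusted p 6.81e-07 with both. Fen1, the nuclease that trims the flaps before ligation, had 59.6, 66.6 and 59.8 CPM with IL-25, 29.95, 26.8 and 28.6 CPM with IL-33, 64.7, 78.2 and 78.98 CPM with both and 25.5, 41 and 30.4 CPM with vehicle. Its IL-33 and vehicle libraries overlapped, and it changed by log2 0.98 ± 0.18 SE, edgeR adjusted p 0.000711 with IL-25. Rnaseh2b, a subunit of the enzyme that removes ribonucleotides from DNA, had 119.9, 90.7 and 96 CPM with IL-25, 90.6, 67.3 and 38.8 CPM with IL-33, 92.98, 94.1 and 93.6 CPM with both and 63.4, 70.3 and 69.3 CPM with vehicle. It rose with IL-25 by log2 0.6 ± 0.2 SE, edgeR adjusted p 0.0382 and its estimate turned to -0.42 with the side of the Glycam1 split as a term (edgeR adjusted p 0.451). Ung, which cuts uracil out of DNA, rose by log2 1.46 ± 0.49 SE, edgeR adjusted p 0.0482, a call lost in 11 of 20 alternatives. Lig1 kept its call with IL-25 under the split term, and Fen1 (log2 1, edgeR adjusted p 0.11) and Ung (1.63, 0.317) did not. Exo1, an exonuclease of mismatch repair, was not tested, with 4 counts with IL-25, 0 with IL-33, 10 with both, 7 of them in 1 library, and 1 with vehicle.

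The nucleotide supply genes held the largest changes, and 3 of the 4 tested rose with IL-25 and with both. Rrm1 and Rrm2 code for the large and small subunits of ribonucleotide reductase, the enzyme that makes deoxynucleotides. Rrm1 had 88.1, 78.6 and 84.2 CPM with IL-25, 38.7, 29.7 and 58.2 CPM with IL-33, 114, 91.9 and 131 CPM with both and 26.8, 38.7 and 22.8 CPM with vehicle. It rose by log2 1.54 ± 0.22 SE, edgeR adjusted p 4.64e-05 with IL-25 and by log2 1.96 ± 0.21 SE, edgeR adjusted p 1.22e-06 with both. Rrm2 had 64.1, 34.01 and 47.3 CPM with IL-25, 18.99, 5.79 and 20.3 CPM with IL-33, 69.7, 57.5 and 66.2 CPM with both and 4.58, 7.03 and 7.59 CPM with vehicle. Its vehicle libraries were under 8 CPM, and its rise with both was the largest of the tested members against vehicle, at log2 3.37 ± 0.35 SE, edgeR adjusted p 6.81e-07. Tk1, the thymidine kinase that salvages thymidine in S phase (chr11:117815526-117826092, GRCm38), had 29.2, 29.1 and 36.2 CPM with IL-25, 12.4, 5.79 and 10.2 CPM with IL-33, 33.4, 44.9 and 31.9 CPM with both and 0.654, 7.03 and 4.74 CPM with vehicle. Its lowest IL-25 library was above its highest IL-33 library, and it rose with IL-25 by log2 3.12 ± 0.41 SE, edgeR adjusted p 1.89e-05. Dck, the deoxycytidine kinase of the salvage pathway, went otherwise: its group means were 66.7 CPM with IL-25, 98.6 CPM with IL-33, 78.2 CPM with both and 64.98 CPM with vehicle. It was highest with IL-33, a change of log2 0.6 ± 0.19 SE, edgeR adjusted p 0.186 that did not pass, and was not called with IL-25 (log2 0.05 ± 0.2 SE, edgeR adjusted p 0.904). Tyms, the thymidylate synthase, and Dut, which breaks down dUTP, were not tested in IL25R+ cells. Tyms had 14 counts with IL-25, 6 with IL-33, 19 with both and 3 with vehicle, and Dut had 16 with IL-25, 8 with IL-33, 22 with both and 1 with vehicle. Rrm1, Rrm2 and Tk1 all kept their calls with IL-25 when the Glycam1 split was a term.

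Of the 7 genes for histone supply and chromatin copying, 6 rose with IL-25 and 5 with both. Asf1b, a histone chaperone of proliferating cells, had 49.2, 47.5 and 30.6 CPM with IL-25, 10.96, 6.51 and 11.1 CPM with IL-33, 48.7, 29 and 51.6 CPM with both and 7.19, 10.5 and 1.898 CPM with vehicle. It rose with IL-25 by log2 2.71 ± 0.37 SE, edgeR adjusted p 2.63e-05. Uhrf1, which reads half-methylated DNA behind the fork, had 47.95, 29.8 and 47.3 CPM with IL-25, 20.5, 10.9 and 24.02 CPM with IL-33, 63.9, 58.5 and 49.7 CPM with both and 7.19, 18.7 and 8.54 CPM with vehicle. Dnmt1, the maintenance methyltransferase that Uhrf1 recruits, had 69.3, 64.5 and 86.3 CPM with IL-25, 39.5, 45.6 and 61.9 CPM with IL-33, 98.8, 72.2 and 87.9 CPM with both and 51, 46.9 and 43.6 CPM with vehicle. The changes of the pair with IL-25 were log2 1.96 ± 0.32 SE, edgeR adjusted p 0.000221 for Uhrf1 and log2 0.63 ± 0.18 SE, edgeR adjusted p 0.0228 for Dnmt1. Chaf1a and Chaf1b, subunits of chromatin assembly factor 1, rose by 2.21 and 0.83, and Hells, a chromatin remodeller, by 1.42 on the log2 scale, the last at under 10 CPM in every IL25R+ library. Slbp, which binds histone mRNA, was not called (log2 0.64 ± 0.39 SE, edgeR adjusted p 0.29). Hells lost its call with IL-25 under the split term (edgeR adjusted p 0.579) and the other 5 kept theirs. Over all alternatives Hells lost it in 8 of 19, Dnmt1 in 4 of 20 and Chaf1b in 1 of 20, and Asf1b, Chaf1a and Uhrf1 in none.

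Of the 4 fork protection genes, 3 rose with IL-25 and 4 with both. Tipin and Timeless form the complex that steadies the fork. Tipin had 65.4, 41.1 and 49.4 CPM with IL-25, 31.4, 24.6 and 25.9 CPM with IL-33, 50.9, 48.7 and 59.2 CPM with both and 20.3, 14.1 and 21.8 CPM with vehicle, a change of log2 1.45 ± 0.23 SE, edgeR adjusted p 0.000127 with IL-25. Timeless had 34.3, 31.9 and 35.5 CPM with IL-25, 16.8, 12.3 and 24.02 CPM with IL-33, 47.9, 33.4 and 43.3 CPM with both and 19.6, 10.5 and 13.3 CPM with vehicle, a change of log2 1.16 ± 0.27 SE, edgeR adjusted p 0.00519 with IL-25. Both partners were above every vehicle library in every IL-25 library, and Clspn, the checkpoint adaptor claspin, rose with them by 1.58 on the log2 scale. Timeless kept its call with the split term, and Tipin (log2 1.33, edgeR adjusted p 0.0605) and Clspn (2.63, 0.115) did not. E2f1, one of the E2F factors that turn these genes on and itself an E2F target, had 23.3, 21.96 and 20.9 CPM with IL-25, 7.31, 4.34 and 8.31 CPM with IL-33, 23.97, 23.5 and 27.4 CPM with both and 3.27, 9.37 and 4.74 CPM with vehicle. Its IL-33 and vehicle libraries overlapped at under 10 CPM, and it rose with IL-25 by log2 2.04 ± 0.34 SE, edgeR adjusted p 0.000242, a call kept with the split term.

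Adding IL-33 to IL-25 changed few of these genes. With both cytokines against IL-25 alone, edgeR called 1 member higher and 1 lower, against 1.36% and 1.79% of all genes, and the median log2 difference of the 54 was 0.13. Usp1, the deubiquitinase that acts on Pcna and the Fanconi anaemia proteins (chr4:98923810-98935543), had 51.6, 55.3 and 62.4 CPM with both and 37.6, 37.6 and 33.4 CPM with IL-25, beside 28.5, 24.6 and 27.7 CPM with IL-33 and 26.2, 29.3 and 36.1 CPM with vehicle. Its libraries with both cytokines were above every other IL25R+ library, at log2 0.64 ± 0.17 SE, edgeR adjusted p 0.0413 against IL-25. Gmnn (chr13:24751845-24761923) was lower with both than with IL-25, at log2 -0.68 ± 0.18 SE, edgeR adjusted p 0.0437, with the libraries given above free of overlap. Usp1 lost its call in 10 of 20 alternatives and Gmnn in 11. Both counts were 0 when any 1 library with both cytokines, any 1 IL-25 library or vehicle library 2 was left out, and the lower count was 0 without vehicle library 1. Both counts were also 0 with the side of the Glycam1 split, which lies wholly across this comparison, as a term.

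The test of whether the change with both cytokines differed from the sum of the single changes on the log2 scale called 0 members higher and 0 lower by edgeR, against 1.04% and 1.31% of all genes, and 0 by DESeq2 and limma-voom. At an unadjusted p under 0.05, 1 was higher and 5 were lower, beside 1516 of all 8850 genes in either direction, and the members' median was -0.17. Without IL-33 library 3, Orc6 (-1.43) and Gmnn (-1.11) were called lower. The libraries with both cytokines and with vehicle lay on the same side of the Glycam1 split. The IL-25 libraries and IL-33 libraries 1 and 2 lay on the other. This test therefore cannot separate the split from the way the cytokines combine, and its count of 0 does not show that their changes add up.

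In ST2+ cells the replication genes stood at a higher summed level and IL-33 raised part of them. The summed level was 6368, 6096, 6376 and 5864 CPM with IL-33 and 5135, 4380, 3505 and 5204 CPM with vehicle, without overlap. Levels of the 2 populations come from tables scaled separately, and population and table cannot be told apart, so they are set side by side without a test. With IL-33, 12 of the 55 tested members were higher and 0 lower by edgeR, where 8.52% of all 7626 genes were higher and 8.03% lower. Their median log2 fold change was 0.43, against 0.00136 over all genes, and 44 estimates were positive, where 50.1% were positive over all genes. In 18 members the IL-33 libraries all lay above the vehicle libraries, as in 11.6% of all genes. No member was lower at an unadjusted p under 0.05, and DESeq2 and limma-voom called 0 lower. The 12 were Orc1, Mcm7, Cdc45, Gins2, Prim2, Pold2, Rfc2, Rfc5, Fen1, Ung, Rrm1 and Rrm2, spread over 7 roles, while no single-strand binding, chromatin copying or fork protection gene and not E2f1 was called.

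The size of this count depended on single libraries. Without IL-33 library 2, the library that stood apart, 22 members were called, the 12 among them with Orc6, Mcm3, Mcm4, Mcm10, Gins1, Gins4, Pole, Rpa2, Asf1b and Usp1 added. Without IL-33 library 1 the count was 3 (Gins2, Prim2 and Pold2), without IL-33 library 4 it was 5, and without vehicle library 2 it was 6. In library 2 with IL-33, Pcna was at 53.4 CPM against 338 to 528 CPM in the other 3 IL-33 libraries, Asf1b at 27.8 CPM against 196 to 221 CPM and Usp1 at 6.68 CPM against 63.4 to 93.8 CPM. Rpa3 went the other way, at 60.1 CPM against 7.4 to 10.9 CPM. Summed T cell markers (8 of 13 listed) were 30.3 to 102 CPM with IL-33 and 102 to 229 CPM with vehicle, and summed macrophage and dendritic cell markers (7 of 12 listed) were 158 to 432 CPM with IL-33 and 64.0 to 143 CPM with vehicle. Pecam1 was at 54.5 to 103 CPM with IL-33 and 12 to 29.5 CPM with vehicle, and Cd79b at 32.3 to 51.2 CPM with IL-33 and 18.9 to 31.1 CPM with vehicle, both called higher. Of 14 tested ILC2 markers, 4 were higher and 4 lower. The part of these markers was not tested.

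Among licensing and helicase genes in ST2+ cells, Orc1 had 21.1 to 27.8 CPM with IL-33 and 5.16 to 11.9 CPM with vehicle, a change of log2 1.36 ± 0.31 SE, edgeR adjusted p 0.0146, the largest of the 12. Mcm7 had 405, 328, 370.1 and 357 CPM with IL-33 and 258, 213, 188 and 235 CPM with vehicle, and was the only MCM gene called (log2 0.71 ± 0.18 SE, edgeR adjusted p 0.0231). The other 5 MCM estimates were positive, from 0.25 for Mcm5 to 0.75 for Mcm2, and did not pass, and the Mcm5 groups overlapped. Mcm5 had 337, 174, 325 and 304 CPM with IL-33 and 306, 208, 126 and 312 CPM with vehicle. Cdc45 had 102, 104, 92.2 and 92.7 CPM with IL-33 and 61.6, 39.7, 34.4 and 61.1 CPM with vehicle (log2 0.94 ± 0.23 SE, edgeR adjusted p 0.0175). Gins2 had 186, 202, 186 and 158 CPM with IL-33 and 113, 97.5, 65.4 and 106 CPM with vehicle (log2 0.92 ± 0.21 SE, edgeR adjusted p 0.0125). These 3 helicase genes did not overlap between the groups. Cdt1 and Gmnn, the licensing factor and its inhibitor, overlapped and were not called, at 0.01 and 0.12 on the log2 scale.

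At the fork, Prim2, the regulatory subunit of primase, had 45.5 to 63.5 CPM with IL-33 and 14.5 to 28.98 CPM with vehicle (log2 1.24 ± 0.28 SE, edgeR adjusted p 0.0121). Prim1 was not called (log2 -0.11 ± 0.47 SE, edgeR adjusted p 0.896). Pold2 had 164, 214, 132 and 152 CPM with IL-33 and 87.99, 61.4, 91.2 and 93.97 CPM with vehicle (log2 0.97 ± 0.22 SE, edgeR adjusted p 0.0126). Its partner Pold1 had 134, 185, 117 and 104 CPM with IL-33 and 166, 155, 122 and 174 CPM with vehicle and was not called. In both pairs it was the accessory subunit that passed in ST2+ cells. Rfc5 had 116, 66.8, 99.9 and 112 CPM with IL-33 and 54.9, 30.7, 29.3 and 60.3 CPM with vehicle (log2 1.13 ± 0.28 SE, edgeR adjusted p 0.0219). Rfc2 had 163, 209, 179 and 163 CPM with IL-33 and 122, 125, 92.9 and 126 CPM with vehicle (log2 0.61 ± 0.18 SE, edgeR adjusted p 0.0432), a call lost in 9 of 14 alternatives. Pcna, with 352, 53.4, 528 and 338 CPM with IL-33 and 321, 352, 291 and 356 CPM with vehicle, was not called.

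Among finishing and supply genes in ST2+ cells, Fen1 had 165, 108, 170.3 and 147 CPM with IL-33 and 93.7, 66.8, 55.1 and 83.6 CPM with vehicle (log2 0.96 ± 0.23 SE, edgeR adjusted p 0.016), without overlap, and Ung rose by 1.05 on the log2 scale. Rrm1 had 349, 482, 301 and 344 CPM with IL-33 and 207, 175, 170.4 and 277 CPM with vehicle (log2 0.82 ± 0.23 SE, edgeR adjusted p 0.0313). Rrm2 had 271, 99.1, 178 and 272 CPM with IL-33 and 105, 75.9, 94.6 and 61.4 CPM with vehicle (log2 1.3 ± 0.32 SE, edgeR adjusted p 0.019). Both subunits of ribonucleotide reductase thus passed, Rrm1 without overlap and Rrm2 with its second IL-33 library inside the vehicle range. Lig1 had 156, 222, 168 and 130.2 CPM with IL-33 and 166, 134, 86.04 and 195 CPM with vehicle, and Tk1 had 204, 312, 258 and 217 CPM with IL-33 and 245, 182, 160 and 230.1 CPM with vehicle. Neither was called (log2 0.19 ± 0.26 SE, edgeR adjusted p 0.655 and log2 0.27 ± 0.21 SE, edgeR adjusted p 0.424), and their ST2+ vehicle libraries lay above their highest IL25R+ library on the separately scaled tables. Dnmt1 had 167, 289, 182 and 154 CPM with IL-33 and 209, 173, 119 and 252 CPM with vehicle. Its partner Uhrf1 had 128, 261, 158 and 111 CPM with IL-33 and 99.9, 105, 72.3 and 129.5 CPM with vehicle, and neither passed (log2 0.05 ± 0.27 SE, edgeR adjusted p 0.916 and log2 0.67 ± 0.29 SE, edgeR adjusted p 0.136). E2f1 had 67.3, 101, 62.1 and 57.2 CPM with IL-33 and 54.4, 50.6, 44.7 and 46.3 CPM with vehicle, without overlap but not called (log2 0.54 ± 0.23 SE, edgeR adjusted p 0.138).

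Other members with values in every library overlapped between the ST2+ groups or did not pass. Orc6 ran from 24.5 to 75.3 CPM with IL-33 and from 24.1 to 45.03 CPM with vehicle. Gins4 ran from 46.8 to 123 CPM with IL-33 and from 48.8 to 77.4 CPM with vehicle. Tipin ran from 20.04 to 88.99 CPM with IL-33 and from 22.4 to 65.2 CPM with vehicle. In each of these 3 the lowest IL-33 library was library 2, and so it was for Timeless, the partner of Tipin (12.2 to 44.8 CPM with IL-33 and 17.2 to 41.9 CPM with vehicle). Pola2 ran from 72.8 to 157 CPM with IL-33, library 2 the highest, and from 96.4 to 118 CPM with vehicle. Mcm6 and Rpa2 were free of overlap but did not pass, at edgeR adjusted p of 0.182 and 0.0701. Mcm6 ran from 224 to 303 CPM with IL-33 and from 96.4 to 220 CPM with vehicle, and Rpa2 from 126 to 164 CPM with IL-33 and from 59.6 to 122 CPM with vehicle. Rpa1 ran from 110 to 151 CPM with IL-33 and from 99.8 to 145 CPM with vehicle. Rnaseh2b ran from 40.1 to 96.4 CPM with IL-33 and from 72.3 to 118 CPM with vehicle, with a negative estimate that was not called (log2 -0.3 ± 0.28 SE, edgeR adjusted p 0.488).

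The change with IL-33 was set against the same change in IL25R+ cells in a fit of all 20 libraries over 8964 genes, with 54 members tested. The IL-33 change was larger in ST2+ than in IL25R+ cells for 2 members (3.7%), below the 4.66% of all genes. For Fen1 (chr19:10199132-10204169) the difference was log2 1.16 ± 0.32 SE, edgeR adjusted p 0.0197, with a change of 0.96 in ST2+ cells and -0.14 in IL25R+ cells, each from its own table. For Prim2 (chr1:33453810-33669795) it was log2 1.13 ± 0.35 SE, edgeR adjusted p 0.0394, with changes of 1.24 and 0.1. For the other 52 the difference did not pass. The 12 calls in ST2+ cells and the 0 in IL25R+ cells are thus not shown to differ gene by gene beyond Fen1 and Prim2. These 2 of 54 are no more than the share of all genes. The Fen1 difference kept its call in all but 1 of 26 alternatives and Prim2 lost its call in 9. The side of the Glycam1 split was not among them. The count was 0 without IL25R+ vehicle library 2, 1 without any of 8 other libraries (IL25R+ IL-33 library 1 or 3, IL25R+ vehicle library 1 or 3, ST2+ IL-33 library 1 or 4, ST2+ vehicle library 2 or 3), and 5 without ST2+ IL-33 library 2.

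Each population's answer to the cytokine whose receptor it was sorted on was compared in the same fit, IL-33 in ST2+ cells minus IL-25 in IL25R+ cells, groups that share no library. The change was smaller in ST2+ cells for 12 of the 54 members and larger for 0 by edgeR, against 6.97% of all genes smaller, with a median difference of -0.81 against -0.08 over all genes. Of all 8964 genes, 903 were called in either direction. At an unadjusted p under 0.05, 1 was larger and 26 were smaller, beside 2263 of all 8964 genes in either direction. DESeq2 and limma-voom called 0 larger. The 12 were Asf1b, Cdc45, Chaf1a, Chaf1b, E2f1, Gins2, Gmnn, Lig1, Mcm5, Pold1, Prim1 and Tk1. The widest difference was that of Tk1, log2 -2.85 ± 0.48 SE, edgeR adjusted p 0.000824, and Lig1 differed by log2 -2.25 ± 0.41 SE, edgeR adjusted p 0.00137. For both genes every IL25R+ vehicle library, given above, was lower than every ST2+ vehicle library on the separately scaled tables. Cdc45 and Gins2, called higher in both populations, also differed, by log2 -1.4 ± 0.42 SE, edgeR adjusted p 0.035 and log2 -1.36 ± 0.38 SE, edgeR adjusted p 0.0252. The Cdc45 difference lost its call in 14 of 26 alternatives, Chaf1b in 13, Asf1b in 8, Chaf1a in 7, Gins2 and Pold1 in 5 each, E2f1 in 4 and Mcm5 in 1, and Tk1, Lig1, Prim1 and Gmnn in none. The side of the Glycam1 split, which lies wholly across IL-25 against vehicle, was not among these alternatives. In the fit of IL25R+ cells with that side as a term, Cdc45 and Gmnn lost their IL-25 call and the others of the 12 kept theirs. Of the 12 members called in ST2+ cells 10 were also called with IL-25 in IL25R+ cells, 83.3% of the 12 and 23.8% of the 42, where Orc1 and Prim2 were the exceptions. Of the 54 members tested in both populations, 77.8% were called with IL-25, so the share of 83.3% is near that of the members as a whole. The count of 12 was 4 without IL25R+ vehicle library 3, 5 without IL-25 library 1, 6 without IL25R+ vehicle library 1 or ST2+ IL-33 library 1, 7 without IL25R+ vehicle library 2, and 16 without ST2+ IL-33 library 2.

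**Figure D4:**
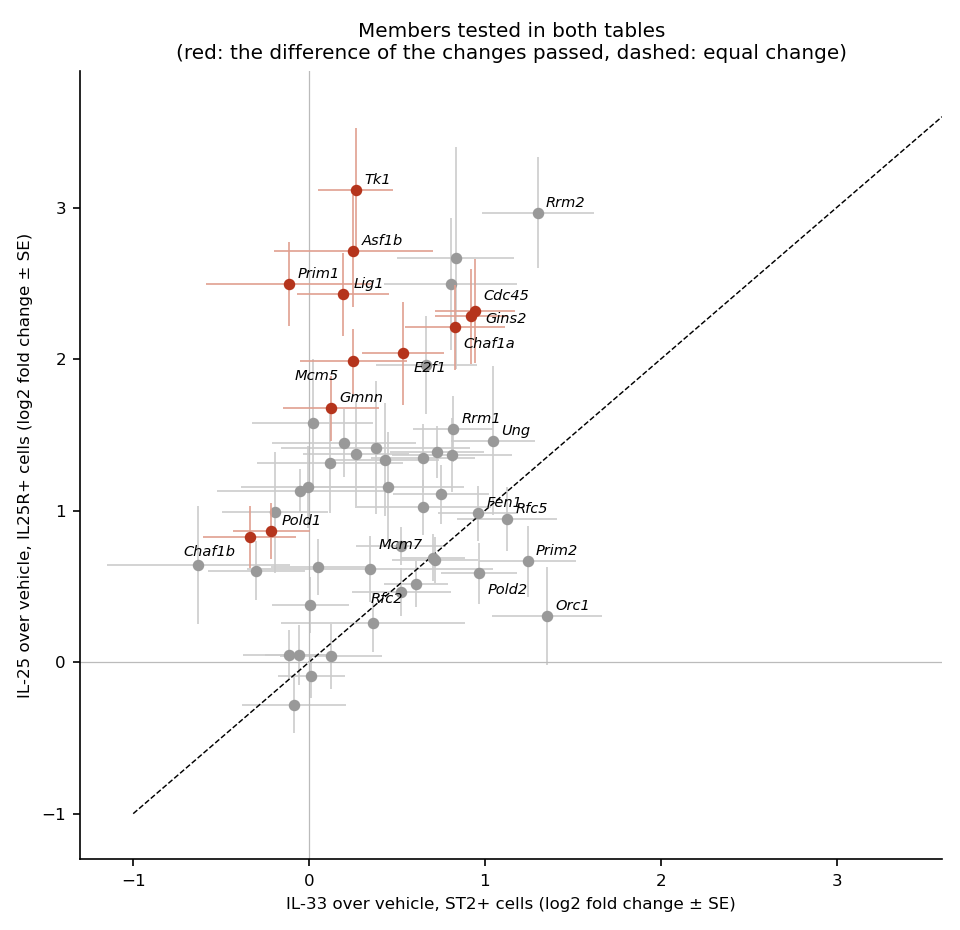
Log2 change with IL-33 in ST2+ cells (horizontal axis) and with IL-25 in IL25R+ cells (vertical axis) for the 54 members tested in both; red points are the 12 members whose changes differed at adjusted p under 0.05, and the diagonal marks equal change. All 12 red points, Tk1, Lig1 and Mcm5 among them, lie above the diagonal.

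Other genes of the pathway, from lists that hold no member, were counted in the same fits, to be read against the shares of all genes called higher (9.07% with IL-25, 8.97% with both, 8.52% with IL-33 in ST2+ cells). Of 37 further replication factors 30 were tested, and 6 were higher and 0 lower with IL-25, with a median log2 fold change of 0.35. Chtf18 and Dscc1 belong to the alternative clamp loader that acts in cohesion, and Chtf18 rose by log2 2.45 ± 0.54 SE, edgeR adjusted p 0.00339 at 14.9, 7.09 and 17.4 CPM with IL-25 and 1.31, 1.17 and 4.74 CPM with vehicle. Wdhd1, which links helicase and polymerase alpha, rose by log2 1.1 ± 0.31 SE, edgeR adjusted p 0.0176, and Nasp, a chaperone of histone H3 and H4, by log2 0.99 ± 0.26 SE, edgeR adjusted p 0.0122. Of these factors 0 were called with IL-33, 5 with both cytokines and 2 of 25 with IL-33 in ST2+ cells, a share near that of all genes, where Nasp rose by log2 1.02 ± 0.19 SE, edgeR adjusted p 0.00556.

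Of 29 genes of de novo and folate-linked nucleotide synthesis, 7 of 26 tested rose with IL-25, 0 with IL-33 and 12 with both, and none of the 26 fell in those comparisons. In ST2+ cells IL-33 raised 10 of 22 and lowered 1. Dctpp1, which clears damaged deoxycytidine triphosphates, rose with IL-25 by log2 0.76 ± 0.15 SE, edgeR adjusted p 0.0015. Nme1, a nucleoside diphosphate kinase, rose by log2 0.68 ± 0.13 SE, edgeR adjusted p 0.00111, and Dtymk, the thymidylate kinase, by log2 0.64 ± 0.14 SE, edgeR adjusted p 0.0023. Nme1 had 1719, 1817, 1416 and 1637 CPM with IL-33 in ST2+ cells and 731, 560, 614 and 879.8 CPM with vehicle, a rise of log2 1.24 ± 0.22 SE, edgeR adjusted p 0.00454. The 1 gene that fell was Samhd1, the enzyme that breaks down deoxynucleotides, named after its values were seen. It had 45.2, 57.9, 36.5 and 40.03 CPM with IL-33 and 254, 226, 136 and 221 CPM with vehicle in ST2+ cells (log2 -2.24 ± 0.24 SE, edgeR adjusted p 0.000494). In IL25R+ cells it was higher with IL-25, at 169, 167 and 155 CPM against 125, 114 and 90.1 CPM with vehicle (log2 0.57 ± 0.13 SE, edgeR adjusted p 0.00423).

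Of 20 E2F, Rb and DREAM genes, the activators and repressors of this program, 6 of 18 tested rose with IL-25, 0 with IL-33 and 6 with both, and 3 of 19 rose with IL-33 in ST2+ cells. Ccne1, the cyclin E that starts S phase, rose by log2 1.65 ± 0.29 SE, edgeR adjusted p 0.000463 with IL-25 at 22.03, 22.7 and 29.2 CPM with IL-25 and 9.81, 5.86 and 6.64 CPM with vehicle. In ST2+ cells it rose by log2 1.3 ± 0.29 SE, edgeR adjusted p 0.0119 with IL-33. Ccne2, E2f8 and Ccna2 were also called with IL-25, with larger estimates than that of Ccne1. With IL-33 in ST2+ cells Ccna2 (log2 0.003, edgeR adjusted p 0.998) and E2f8 (0.69, 0.252) were not called. Ccne2 was not tested there. Of 20 mitosis genes, 14 of 15 tested rose with IL-25, 13 with both and 0 with IL-33, with a median log2 fold change of 2.34 with IL-25. Mki67, the proliferation marker Ki-67, rose with IL-25 by 3.02 and Aurkb, a kinase of chromosome segregation, by 2.79 on the log2 scale. The summed level of the mitosis genes, 19 of 20 listed, was 482 to 640 CPM with IL-25 and 143 to 205 CPM with IL-33. It was 403 to 625 CPM with both and 96.8 to 179 CPM with vehicle. In ST2+ cells it was 2230 to 2880 CPM with IL-33 and 1557 to 2724 CPM with vehicle, and 1 of 17 tested mitosis genes rose, a share below that of all genes: Aurka, a spindle kinase named after its values were seen (log2 0.998 ± 0.26 SE, edgeR adjusted p 0.0264).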

How the data were processed

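Bulk MARS-seq was run on 12 libraries of IL25R+ and 8 libraries of ST2+ thymic ILC2. The authors deposited 1 table per population with whole-number counts per gene and library, and 0 per-sample columns stayed without a labelled sample. Per the submitters' processing notes, bcl2fastq, cutadapt, STAR 2.5.2b, HTSeq and DESeq2 were used with mouse build mm10. Whether counts are of reads or molecular identifiers, the strand setting and the filter that chose the listed genes are not given in the sources used here.

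All values were computed from the deposited counts in R 4.3.3. Genes were kept by edgeR's filterByExpr (minimum count 10, minimum total 15, minimum proportion 0.7), libraries were scaled by TMM, and edgeR 4.0.16's quasi-likelihood test was fitted with 1 coefficient per group on the whole table of 8850, 7626 or, for both populations together, 8964 genes. Calls were made at 0.05 after Benjamini-Hochberg adjustment over all genes of a comparison. Each SE equals the size of the log2 fold change divided by the root of F, and CPM are counts over the TMM-scaled library size. Principal components used the 2000 most variable genes. The fit was also run on simulated counts drawn with 1 spread for all genes of a fit. Those counts held no outlying library and no Glycam1 split, so that run does not vouch for the fit on these data. Because fitted folds of genes near 0 depend on edgeR's prior count, no fold is given against groups with 3 counts or fewer. Counting error limits precision most in the shallowest libraries, 537999 counts in ST2+ and 834913 counts in IL25R+ cells.

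The members and gene lists were chosen with earlier results of these data known. Values in every library are given for up to 3 members per role with the highest mean level. Genes named from each other list were drawn from the 4 called with IL-25 with the largest change, and not all of those are named. Samhd1 and Aurka were added after their values were seen. Alternatives were DESeq2 size factors, no filter, a filter at a mean of 10 CPM, DESeq2 1.42.0, limma-voom (limma 3.58.1), a replicate block and leaving out each library. In the fits of IL25R+ cells alone, further ones were only the 2 groups compared and, added after the data were seen, the side of the Glycam1 split (above 10 CPM) as a term. Gene positions are those of GENCODE M21 on GRCm38, the same assembly as mm10, and promoters are RefSeq's.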

Additional observations from a re-analysis of the deposited data

Results flagged for a closer look

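In ST2+ cells, 62 groups of 4 libraries of 1 member each were looked at for a library far from the other 3, and 4 were found, where chance gives about 1 in 20. Of these, 3 fell in IL-33 library 2: Asf1b was at 27.83 CPM there and at 196.3 to 220.9 CPM in the other IL-33 libraries, Rpa3 was at 60.11 CPM against 7.4 to 10.88 CPM, and Gmnn was at 92.39 CPM against 58.02 to 63.38 CPM. The fourth was Rfc2 in vehicle library 3, at 92.92 CPM against 121.6 to 126.2 CPM in the other vehicle libraries. Without IL-33 library 2 Asf1b passed edgeR's test (log2 fold change 0.61) and Usp1 too (0.75). Between the populations, the change with IL-33 was larger in ST2+ than in IL25R+ cells by 1.16 on the log2 scale for Fen1 and by 1.13 for Prim2 (edgeR adjusted p 0.0197 and 0.0394). These were 2 of 54 members (3.7%), below the 4.66% of all genes called in that direction. The Prim2 call was lost in 9 of 26 alternatives and that of Fen1 in 1.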

How the results depend on the processing

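With 1 library left out, the number of members called higher ran from 32 to 44 (IL-25 against vehicle), 0 to 4 (IL-33 against vehicle), 33 to 40 (both against vehicle), 31 to 35 (both against IL-33), 28 to 37 (IL-25 against IL-33), 0 to 1 (both against IL-25), 3 to 22 (IL-33 in ST2+ cells) and 0 to 5 (difference of the IL-33 changes). The number called lower ran from 0 to 1 (both against IL-25, and IL-25 against IL-33, where Dck was called without library 1 with both cytokines or without IL-33 library 2), 0 to 2 (interaction) and 4 to 16 (IL-33 in ST2+ minus IL-25 in IL25R+ cells). With the side of the Glycam1 split as a term, members called higher numbered 22 with IL-25 against vehicle, 3 with IL-33 against vehicle and 22 with both against IL-33, and 0 were higher and 0 lower with both against IL-25. Against vehicle with IL-25 the estimates of Mcm10 (-1.03) and Rnaseh2b (-0.42) reversed. The split term was estimated within the IL-33 group alone. DESeq2 size factors gave 1 lower member in the interaction (Orc6), no filter gave 0 lower members with both against IL-25, DESeq2 gave 0 higher there, and fitting only those 2 groups gave 2 higher, Rrm1 added. The causes were not tested. DESeq2 size factors, DESeq2, limma-voom and both filters otherwise kept every count within 1.5 times its value.

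The labels do not say whether replicate numbers pair the libraries. The correlation of same-numbered libraries' deviations from their group means ran from -0.123 to 0.125 in IL25R+ cells. In ST2+ cells it ran from 0.0198 to 0.252, all positive. Differently numbered libraries were not compared, so these values do not settle pairing. With the replicate number as a block, members called higher numbered 39 with IL-25, 40 with both, 0 with IL-33 and 13 with IL-33 in ST2+ cells, both against IL-25 gave 0 higher and 0 lower, IL-25 against IL-33 gave 1 lower (Dck), the difference of the IL-33 changes gave 4 higher, Gins4 and Rfc5 added, and the difference of each population's own change gave 15 lower. Depth limits the lowest members: Cdc6, Exo1, Tyms and Dut had at most 12 counts in any IL25R+ library and were not tested there. With no filter, Dut was called higher with IL-25 and with both against vehicle (edgeR adjusted p 0.041 and 0.0203) and Cdc6 with both against vehicle and against IL-33 (0.0249 and 0.0266), while Exo1 and Tyms were called in no comparison.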
